A study of Mus musculus with 18 samples.

Results

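Macrophages sense IgG through a small family of Fc receptors, and 8 genes of this system were followed here: the Fcγ receptors Fcgr1, Fcgr2b, Fcgr3 and Fcgr4, the neonatal Fc receptor Fcgrt, the adaptors Fcer1g and Tyrobp, and the kinase Syk. They were chosen as listed symbols, matched through Ensembl identifiers, and all 8 were among the 13759 genes tested in sorted macrophages. Fcer1g and Tyrobp were also followed in 4 sorted lymphocyte populations, in which 13594 genes were tested.

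The study asked how the environment of a liver metastasis shapes NK cells and which macrophages take part. Female C57BL/6J mice of 8 to 10 weeks received MC38 cells, a mouse colon adenocarcinoma line, in the spleen, and livers were analyzed at day 20. From liver metastases (LM), lineage-negative CD45+CD11b+ macrophages were sorted as F4/80high (3 libraries) or F4/80low (3 libraries; the study's F4/80int subset). From pools of 6 to 8 samples of LM or metastasis-free liver (MFL), lineage-negative CD45+NKp46+ lymphocytes were sorted into 4 populations of 3 libraries each. Those of MFL are NK cells, which were CD49a-CD49b+, and ILC1, which were CD49a+CD49b-. Those of LM are NK cells without CD49a (CD49a- NK) and NK cells with both CD49a and CD49b (CD49a+ NK). All groups came from mice with MC38 tumors. LM was digested with Liberase and MFL was smashed and filtered, so site and dissociation cannot be told apart. The titles of the LM CD49a+ NK libraries call them ILC1, and they were assigned by their cell type label. Cells were incubated with anti-CD16/32, which binds the proteins of Fcgr3 and Fcgr2b, before staining. Nothing in the labels says that the macrophage libraries came from separate mice or sorts, so their p-values measure the spread between these libraries, which may be technical.

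Activating Fcγ receptors bind IgG on immune complexes or coated cells and reach the cell surface with the FcRγ chain, the product of Fcer1g. FcRγ and DAP12, the product of Tyrobp, have next to no extracellular part of their own. Each carries an immunoreceptor tyrosine-based activation motif (ITAM), whose paired tyrosines are phosphorylated by SRC family kinases and then bound by SYK. FcγRIIb, the product of Fcgr2b, instead carries an inhibitory motif (ITIM) and dampens the same signal. In tissue macrophages these receptors are known for phagocytosis of antibody-coated targets, and DAP12 for signaling by TREM receptors.

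Of the 8 members, 4 lie within 276 kb of chromosome 1 (GRCm39). These are Fcgr2b (ENSMUSG00000026656) at chr1:170786186-170804177 on the minus strand, Fcgr4 (ENSMUSG00000059089) at chr1:170846466-170857330 on the plus strand, Fcgr3 (ENSMUSG00000059498) at chr1:170878738-170893549 on the minus strand and Fcer1g (ENSMUSG00000058715) at chr1:171057141-171062219 on the minus strand. Fcgr1 (ENSMUSG00000015947) lies apart from them at chr3:96190225-96201338, minus strand. Fcgrt (ENSMUSG00000003420) is at chr7:44742412-44756819 on the minus strand, Tyrobp (ENSMUSG00000030579) at chr7:30113170-30117010 on the plus strand and Syk (ENSMUSG00000021457) at chr13:52736696-52802828 on the plus strand.

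The coding stretches of the ITAMs of both adaptors and of the known ITIM of Fcgr2b are shown because they carry the tyrosines named above. Each runs 5′ to 3′ in the coding strand of the GENCODE vM39 canonical transcript, with the tyrosine codons in capitals. The ITAM of Fcer1g spans chr1:171057458-171057641, across exons 4 and 5 of 5, that of Tyrobp spans chr7:30115095-30116807, also across exons 4 and 5 of 5, and the ITIM of Fcgr2b lies at chr1:170788640-170788657 in exon 7 of 7.
Fcer1g ITAM: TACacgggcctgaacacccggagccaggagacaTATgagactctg
Tyrobp ITAM: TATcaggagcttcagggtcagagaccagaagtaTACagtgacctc
Fcgr2b ITIM: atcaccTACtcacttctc
Both ITAM stretches were 45 bases long, with the same spacing between the tyrosine codons. No other member matched the ITAM pattern. The ITIM pattern is loose and does not divide the members: it matched 6 of the 8, namely Fcgr1 (in 2 places), Fcgr4, Fcgrt and both ITAM adaptors beside Fcgr2b, and only the Fcgr2b match, the one known as its ITIM, is shown.

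Fcgr2b and Fcgr3 share part of their sequence, which bears on every count of these genes. Of the 31-base words in the coding sequence of Fcgr3, 30.4% also occur in Fcgr2b transcripts, and of those of Fcgr2b 27.3% occur in Fcgr3 transcripts. No word was shared between any other pair of members. The longest shared run is 129 bases, in exons 3 and 4 of both genes (chr1:170794243-170795650 for Fcgr2b and chr1:170881736-170885361 for Fcgr3), and is shown because a read that lies inside it cannot be placed by sequence alone.
Fcgr2b and Fcgr3: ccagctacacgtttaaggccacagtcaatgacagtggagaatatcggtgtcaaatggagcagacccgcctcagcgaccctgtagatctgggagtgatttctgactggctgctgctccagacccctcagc
The split of such reads between Fcgr2b and Fcgr3 was estimated by Salmon, so the values of these 2 genes are uncertain to that extent. Exons of Fcgr2b also overlap the antisense gene Gm38204 over 200 bases.

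Promoter windows from RefSeq (GRCm38.p6, 250 bases before to 50 after each start) were found for 7 of the 8 members. They were searched for GAGGAA on both strands, the core letters of the site of PU.1, a transcription factor of the myeloid lineage. These members had 9 windows, as Fcgr3 and Syk have 2 starts each. The letters occurred in 5 of the 9 windows (1 each of Fcgr1, Fcgr4 and Syk and both of Fcgr3), beside 28.3% of all 32851 windows, and the other Syk window held none. The slices of the activating receptors are shown with the match in capitals, for Fcgr1 at chr3:96294007-96294036 (minus strand), for Fcgr3 at chr1:171059395-171059424 (minus strand) and for Fcgr4 at chr1:171018892-171018921 (plus strand).
Fcgr1: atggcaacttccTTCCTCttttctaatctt
Fcgr3: agagagtccatttccTTCCTCtttttgtag
Fcgr4: aaggctatttacTTCCTCtcttctagtcaa
The match began 55 bases before the start of Fcgr1, 15 before the Fcgr3 start used here (6 before its other start, the same site) and 22 before that of Fcgr4, in each case as TTCCTC, so GAGGAA reads on the strand opposite to the gene. These are matches of letters and not measured binding.

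The 6 macrophage libraries held between 21278959 and 32267015 counts. Values are given as CPM (a gene's count relative to its library's total, after TMM scaling between libraries), as mean ± SD of 3 libraries. A gene was called where edgeR's quasi-likelihood test gave a p under 0.1 after Benjamini-Hochberg adjustment over all genes. Of all genes, 54.9% were called between the subsets, so a call is common here. The sorting marker matched the labels, with Adgre1, which encodes F4/80, at 957.8 ± 187 CPM in F4/80high and 146.1 ± 19.0 in F4/80low libraries. Other markers also moved with the sort. Summed over 10 macrophage markers the level was 20200 to 26700 CPM in F4/80high and 10400 to 13200 in F4/80low libraries. Over 9 classical monocyte markers it was 950 to 1230 against 2320 to 2690, mostly Ccr2 in F4/80low libraries (463.3 against 1371). Of these 9, 8 were called lower in F4/80high libraries, but F13a1 was called higher (583.3 against 196 CPM). Over 8 dendritic cell markers the sum was 11.5 to 19 against 398 to 714. The NK cell list summed to 7.2 to 11.8 against 60.5 to 118 CPM, mostly Klrk1, the mast cell and basophil list to 3.02 to 5 against 56.3 to 101, mostly Kit, and the tumor epithelium list to 8.3 to 11.8 against 197 to 281, mostly Cdh1. The platelet list summed to 114 to 139 against 8.85 to 28.6 CPM, but this was nearly all Pf4 (123.2 against 14.1 CPM), while Ppbp was at 0.870 against 0.988 and Itga2b was called lower (0.409 against 1.95). The hepatocyte list summed to 363 to 727 against 213 to 244 CPM, mostly Trf (517.3 against 228.6), while Alb, Apoa1 and Fgb were below 5 CPM and not called. The neutrophil list summed to 74 to 105 against 99.1 to 205 CPM, mostly Csf3r (85.7 against 75.2, not called), and its other 7 markers in the table were all called lower in F4/80high libraries, among them S100a8 (0.0226 against 8.27 CPM) and Mmp8 (0.464 against 10.3). The summed levels were 131 to 223 against 92.5 to 154 for B cells and 6.94 to 16.4 against 9.77 to 26.9 for T cells. For Kupffer cells they were 11.2 to 21.8 against 11.6 to 15.3, but the 6 markers went in opposite directions. In F4/80high libraries 4 were called higher, among them Cd5l (4.67 against 0.809 CPM) and Vsig4 (2.84 against 0.299). Timd4 was called lower (0.368 against 8.41 CPM). The part of these differences in the members' results was not tested. In bulk libraries, fewer cells of a type and less RNA per cell cannot be told apart.

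The 8 members did not move together. Syk and Tyrobp were lower in F4/80high than in F4/80low macrophages, Fcer1g, Fcgrt and Fcgr3 were higher, and Fcgr1, Fcgr4 and Fcgr2b did not pass the test. Thus 5 of 8 members (62.5%) were called, 3 higher and 2 lower, beside 54.9% of all genes (27.8% higher and 27.1% lower). The libraries of the subsets did not overlap for 3 members (Syk, Tyrobp and Fcer1g), beside 58.4% of all genes (29.8% higher and 28.6% lower). The median log2 fold change of the members was 0.15, against 0.01 over all genes.

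**Figure D1:**
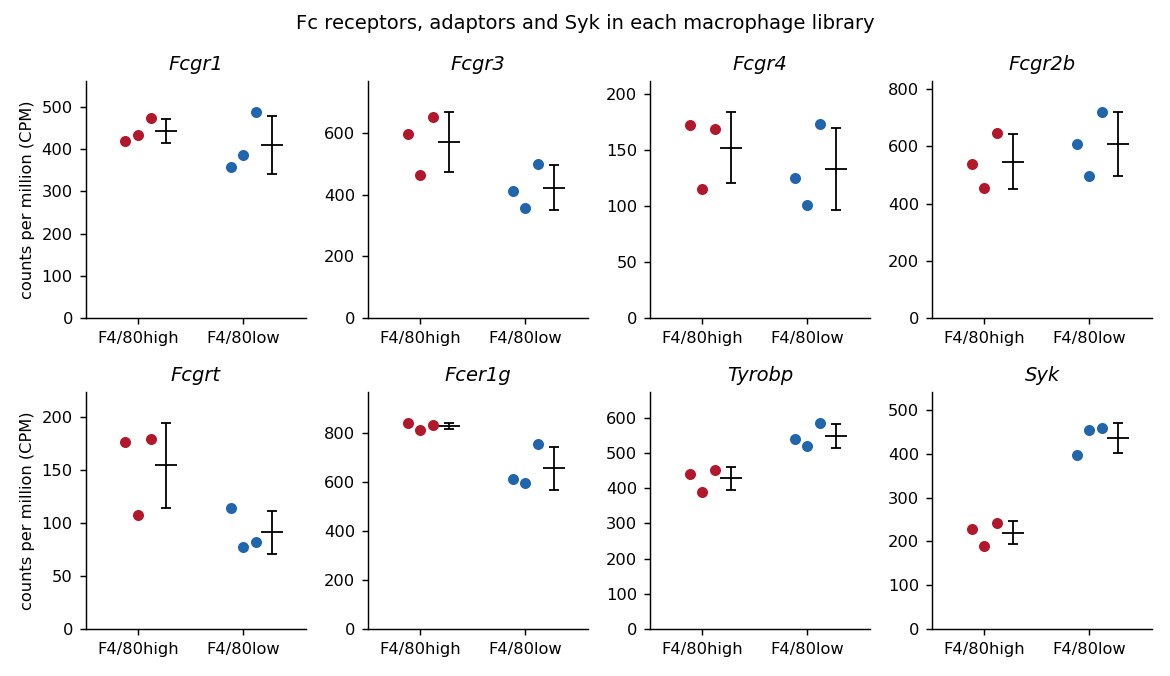
Level of each member in CPM (vertical axes, from 0) in the 3 F4/80high (red) and 3 F4/80low (blue) libraries; each point is a library and the black mark is the mean ± SD. Syk, Tyrobp and Fcer1g separate the subsets without overlap, whereas the points of Fcgr1, Fcgr4 and Fcgr2b interleave.

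Of the activating receptors, Fcgr1 encodes FcγRI (CD64), the high-affinity receptor for IgG and a common marker of macrophages. It measured 419.9, 433.8 and 474.4 CPM in F4/80high libraries and 357, 386.5 and 488.2 in F4/80low libraries. The highest single value was in an F4/80low library, and the groups overlapped. The log2 fold change was 0.11 (SE 0.13, 95% interval -0.18 to 0.40, adjusted p = 0.5114).

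Fcgr3 encodes FcγRIII (CD16), a low-affinity receptor for immune complexes. It measured 594.5, 462.5 and 652.5 CPM in F4/80high libraries and 412.5, 355.5 and 500 in F4/80low libraries. The middle F4/80low value lay below every F4/80high value, but the highest F4/80low library exceeded the lowest F4/80high library. Within each replicate number the F4/80high value was the higher one. Its log2 fold change was 0.43 (SE 0.16, adjusted p = 0.05663), a 1.35-fold higher level. Its adjusted p was the highest of the 5 called, and the call was lost without F4/80high replicate 1 (adjusted p = 0.1367) or 3 (0.168) and without F4/80low replicate 1 (0.1416) or 2 (0.1708), all by edgeR.

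Fcgr4 encodes FcγRIV, a receptor of intermediate affinity for IgG2a and IgG2b in mice. It measured 172.5, 115.5 and 168.9 CPM in F4/80high and 125.4, 100.8 and 173.1 in F4/80low libraries, and the groups overlapped over most of their range. The log2 fold change was 0.19 with a 95% interval of -0.30 to 0.69 (adjusted p = 0.4879).

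Fcgr2b, the inhibitory receptor, measured 539.4, 453.5 and 644.9 CPM in F4/80high and 609.1, 497.3 and 719.4 in F4/80low libraries. Each subset held a low and a high library, with the same replicate numbers, and the groups overlapped. Within each replicate number the F4/80high value was the lower one, but Fcgr2b was not called with the replicate block either. Its log2 fold change was -0.16, the only negative one among the Fc receptors (95% interval -0.54 to 0.22, adjusted p = 0.4705).

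**Figure D2:**
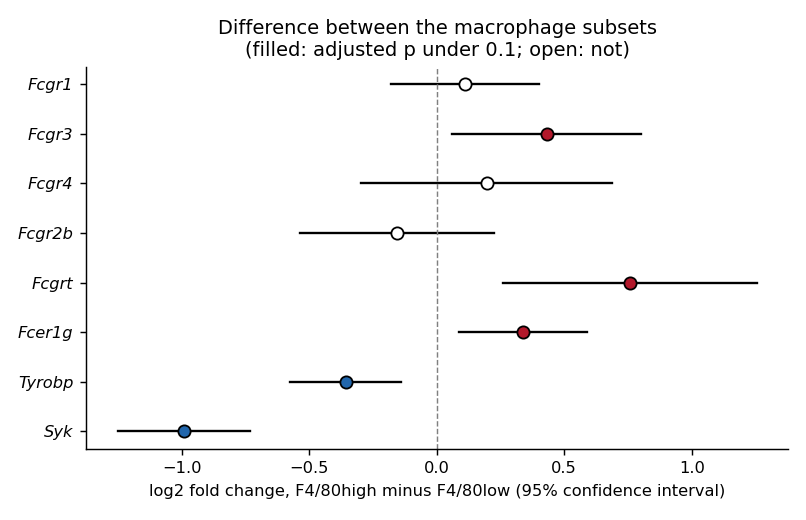
Log2 fold change of each member between F4/80high and F4/80low macrophages (horizontal axis), with its 95% confidence interval from the edgeR fit of 3 against 3 libraries; filled points passed an adjusted p of 0.1 and open points did not. Syk lies farthest to the left at -0.99 and Fcgrt farthest to the right at 0.76, and the intervals of Fcgr1, Fcgr4 and Fcgr2b cross 0.

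The balance of activating to inhibitory receptor was read within each library as a ratio of counts, which needs no scaling between libraries. The count ratio of Fcgr3 to Fcgr2b was 1.102, 1.02 and 1.012 in F4/80high libraries and 0.6773, 0.7149 and 0.695 in F4/80low libraries. The 2 sets of 3 values lay far apart compared with their own spread. The mean ratio was 1.044 against 0.6956, a difference of 0.59 on the log2 scale (p = 0.1 by an exact permutation test, two-sided, and no smaller p is possible with 3 libraries against 3). The bases that Fcgr3 shares with Fcgr2b make this ratio depend on how such reads were split.

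The ratio of Fcgr4 to Fcgr2b was 0.3198, 0.2546 and 0.2619 in F4/80high and 0.2058, 0.2027 and 0.2407 in F4/80low libraries, also without overlap, a 1.285-fold difference (exact permutation p = 0.1). The ratio of Fcgr1 to Fcgr2b was 0.7784, 0.9566 and 0.7355 against 0.5862, 0.7772 and 0.6787. These overlapped, with a difference of 0.27 on the log2 scale (exact permutation p = 0.2). Because the 3 ratios share Fcgr2b as denominator, they are not 3 separate results.

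**Figure D3:**
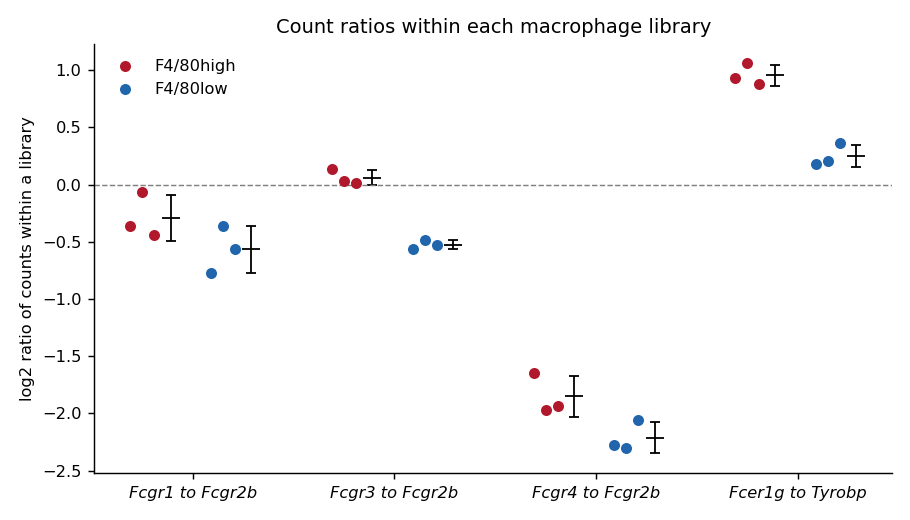
Log2 ratio of 2 genes' counts within each library (vertical axis) for the 3 activating receptors over Fcgr2b and for Fcer1g over Tyrobp, in F4/80high (red) and F4/80low (blue) libraries; black marks are mean ± SD of 3 libraries. The subsets do not overlap for Fcgr3 to Fcgr2b, Fcgr4 to Fcgr2b or Fcer1g to Tyrobp, and overlap for Fcgr1 to Fcgr2b.

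Fcgrt encodes the heavy chain of FcRn, which binds IgG and albumin in endosomes and returns them from degradation. It measured 175.9, 107.6 and 178.6 CPM in F4/80high and 114.2, 77.46 and 81.51 in F4/80low libraries. The lowest F4/80high library lay below the highest F4/80low library, while the other F4/80high libraries stood well above all others. The F4/80high value was the higher one within each replicate number. The log2 fold change was 0.76 (SE 0.22, adjusted p = 0.02007), the largest rise among the members at 1.69-fold. B2m, the light chain of FcRn and of MHC class I, was at 2238 against 2545 CPM (log2 fold change -0.19, adjusted p = 0.1606) and is named here for its partnership, after its values were seen.

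The adaptors moved in opposite directions. Fcer1g measured 840.9, 814.8 and 832.6 CPM in F4/80high libraries, within a narrow range, and 614, 598.1 and 756.1 in F4/80low libraries. Every F4/80high library exceeded every F4/80low library. Its log2 fold change was 0.34 (SE 0.11, adjusted p = 0.03239), and the call was lost without F4/80low replicate 1 (adjusted p = 0.1192) or 2 (0.1127).

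Tyrobp measured 441.1, 390.9 and 453.2 CPM in F4/80high and 540.2, 519.6 and 586.8 in F4/80low libraries. Every F4/80high library was below every F4/80low library. Its log2 fold change was -0.36 (SE 0.10, adjusted p = 0.01495), and the call held without any single library (adjusted p from 0.01762 to 0.05542).

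Read within each library, Fcer1g had 1.907, 2.084 and 1.837 times the counts of Tyrobp in F4/80high and 1.137, 1.151 and 1.289 times in F4/80low macrophages. The lowest F4/80high ratio was well above the highest F4/80low ratio. The ratio was 1.63-fold higher in F4/80high (log2 difference 0.70, exact permutation p = 0.1, the smallest possible), and without any single library the log2 difference stayed between 0.65 and 0.76.

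Syk, the kinase that both ITAM adaptors recruit, showed the largest difference among the members. It measured 227.8, 190.5 and 241.6 CPM in F4/80high and 398.1, 454.4 and 459.6 in F4/80low libraries. The gap between the groups was wider than the range within either. The mean was 219.9 ± 26.5 against 437.4 ± 34.1 CPM (log2 fold change -0.99, SE 0.11, adjusted p = 0.0002057). Without any single library the log2 fold change stayed between -1.07 and -0.90.

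Levels per kilobase of the canonical transcript allow for transcript length, but depend on the length used. On this scale Fcer1g was the highest member in F4/80high macrophages (864.9 ± 13.9 CPM per kb) and Tyrobp second (705.8 ± 54.4). In F4/80low macrophages Tyrobp came first (904.2 ± 56.7) and Fcer1g second (684.1 ± 90.8). On this scale the adaptors changed places, and in neither subset did their libraries overlap. In counts, however, Fcer1g exceeded Tyrobp in every library of both subsets. The change of order therefore rests on the lengths used, 959 bases for Fcer1g and 607 for Tyrobp, and other lengths were not tried. Of the receptors, Fcgr3 led in both subsets, at 368.8 ± 63.0 and 273.6 ± 47.1 CPM per kb. Fcgr1 (167.6 ± 10.7 and 155.4 ± 26.1) and Fcgr2b (160.4 ± 28.2 and 178.8 ± 32.6) followed and overlapped each other in both subsets, and Fcgr4 (119.1 ± 24.96 and 104.1 ± 28.8) overlapped the lower of these 2 genes. Fcgrt (52.5 ± 13.7) and Syk (37.4 ± 4.50) were lowest and overlapped in F4/80high macrophages, whereas in F4/80low macrophages Syk (74.4 ± 5.80) stood above Fcgrt (31.1 ± 6.87). The summed level of Fcgr1, Fcgr3 and Fcgr4 was 678.6, 553.8 and 733.9 CPM per kb in F4/80high and 500.1, 455.2 and 643.8 in F4/80low libraries. Fcer1g stood at 1.292, 1.534 and 1.183 times that sum in F4/80high and at 1.28, 1.37 and 1.225 times in F4/80low libraries, and these ranges overlapped.

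The calls of the members were the same with each scaling tried, although the sizes of their changes were not. With total counts alone, without TMM, the median log2 fold change of all genes rose to 0.16, and the calls over all genes split into 5205 higher and 2816 lower in place of 3821 and 3734. The members' log2 fold changes were then -0.85 for Syk, -0.21 for Tyrobp, -0.0085 for Fcgr2b and 0.26 for Fcgr1. They were 0.34 for Fcgr4, 0.49 for Fcer1g, 0.58 for Fcgr3 and 0.90 for Fcgrt. The same 5 were called, and Fcgr1 came close (adjusted p = 0.1013 by edgeR). Against that median the members lay at -1.01 for Syk, -0.37 for Tyrobp, -0.17 for Fcgr2b, 0.10 for Fcgr1, 0.18 for Fcgr4, 0.33 for Fcer1g, 0.42 for Fcgr3 and 0.74 for Fcgrt. Subtracting the median takes out a shift common to all genes, so these last values do not test the scaling.

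The genes around the members were then examined in 8 lists written from known roles, with earlier results of these data known. Their shares of calls thus describe the lists and are not separate evidence. The lists held 105 genes, of which 97 were in the table. Of these, 73 (75.3%) were called, 18 higher and 55 lower in F4/80high macrophages, beside 54.9% of all genes. Their median log2 fold change was -0.47. With total counts alone 77 were called, 26 higher and 51 lower.

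Receptors that signal through DAP12 were mostly lower in F4/80high macrophages. Of 16 listed genes 14 were called, 12 lower and 2 higher, with a median log2 fold change of -1.38, and with total counts alone 13 were called, 11 lower and 2 higher. Trem1, a receptor that amplifies inflammation, was at 22.6 ± 5.63 CPM in F4/80high and 149.1 ± 36.8 in F4/80low (log2 fold change -2.73, adjusted p = 4.172e-05 by edgeR). The activating paired receptors Pilrb1 (-2.57) and Pilrb2 (-2.21) also fell. Trem2, a lipid-binding receptor of tissue macrophages, went the other way at 299.8 ± 24.6 against 114.6 ± 26.2 CPM (log2 fold change 1.39, adjusted p = 0.0001938 by edgeR). Cd200r4 rose as well (1.17), from a low level.

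Receptors that use FcRγ other than the Fcγ receptors showed the same direction. All 8 of the 11 listed genes that were in the table were called, 7 lower and 1 higher, with a median log2 fold change of -2.33 and the same split with total counts alone. Clec4e, the C-type lectin Mincle, was at 18.9 ± 1.21 CPM in F4/80high and 107.3 ± 42.3 in F4/80low (log2 fold change -2.50), and Pira2 (-2.58) and Lilra6 (-3.88) of the paired immunoglobulin-like receptors were also lower. Lilra5 was higher, at 30.6 ± 16.5 against 8.86 ± 2.90 CPM (1.80). The genes of the Pir, Lilra and Pilrb families have near-identical copies, so how reads were split among them is uncertain. Thus Fcer1g itself was 1.26-fold higher in F4/80high, while 7 of these 8 receptors were lower.

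Of the kinases beside Syk, 5 of 7 were called and all 5 were lower in F4/80high macrophages; with total counts alone 6 of 7 were called, 5 lower and 1 higher. Fgr, a SRC family kinase of myeloid cells, was at 55.6 ± 7.04 against 454.6 ± 19.7 CPM (log2 fold change -3.03, adjusted p = 1.6e-06 by edgeR). Fyn (-1.61) and Src (-1.14) were lower too. Lyn, the kinase linked to both activating and inhibitory receptors, did not pass the test (580.2 against 525.1 CPM, log2 fold change 0.14, adjusted p = 0.261 by edgeR) and is named outside the rule for its role, after its values were seen.

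Among 24 effectors downstream of SYK, 15 were called, 4 higher and 11 lower; with total counts alone 19 were called, 9 higher and 10 lower. Blnk, an adaptor first known from B cells, was at 109.5 ± 10.96 against 27.7 ± 1.92 CPM (log2 fold change 1.98). Pik3ap1 (0.53) and Vav1 (0.23) were also higher, although the call of Vav1 was lost when any of 4 single libraries was left out. Malt1, a protease in the pathway from SYK to NF-κB, was lower (-2.26), as were the adaptor Grap2 (-1.41) and the protein kinase Prkcd (-1.22).

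The 2 lists written for the inhibitory side were mixed. All 15 genes listed as ITIM receptors were called, 8 higher and 7 lower, with a median log2 fold change of 0.31. Whether the mouse form of each, Cd33 included, carries an ITIM was not checked, as the pattern was searched only in the 8 members. The sialic acid-binding receptors Cd22 (2.24) and Cd33 (1.18) and the lectin Clec12a (0.67) were higher in F4/80high macrophages, and Cd300a (-1.93), Pecam1 (-1.70) and Cd300lf (-1.47) were lower. Of 15 phosphatases and other inhibitors 12 were called, 11 lower and 1 higher, or 9 lower and 3 higher with total counts alone. Inppl1, the lipid phosphatase SHIP2, was higher (0.73). The ubiquitin ligase Cblb (-1.70), the adaptor Sla (-1.04) and the phosphatase Ptprc (CD45, -0.89) were lower. The phosphatases of this list, Ptprc among them, need not all dampen the signal, so a lower level is not read as less inhibition. Inpp5d, the phosphatase SHIP1 that FcγRIIb recruits, did not pass the test (586.8 against 517.4 CPM, log2 fold change 0.18, adjusted p = 0.1784 by edgeR) and is again named outside the rule.

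Of 13 other Fc receptors and partners, 8 were in the table and 3 were called: Fcrlb was lower (4.58 ± 1.18 against 21.5 ± 9.68 CPM, log2 fold change -2.22), and Fcrla (-1.81) and Fcrl5 (1.74), both below 5 CPM, are named only to complete the count. Of the other signaling adaptors, Cd79b, a B cell receptor chain, was the only one called (19.3 ± 3.46 against 5.76 ± 1.63 CPM, log2 fold change 1.74). The B cell markers given above, of which Cd79b is one, were in the same libraries, and their part was not tested. The summed dendritic cell, monocyte, NK cell and mast cell markers and 7 of 8 neutrophil markers given above were higher in F4/80low libraries, as were most genes of the receptor and kinase lists, and their part in these lists was not tested either.

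**Figure D4:**
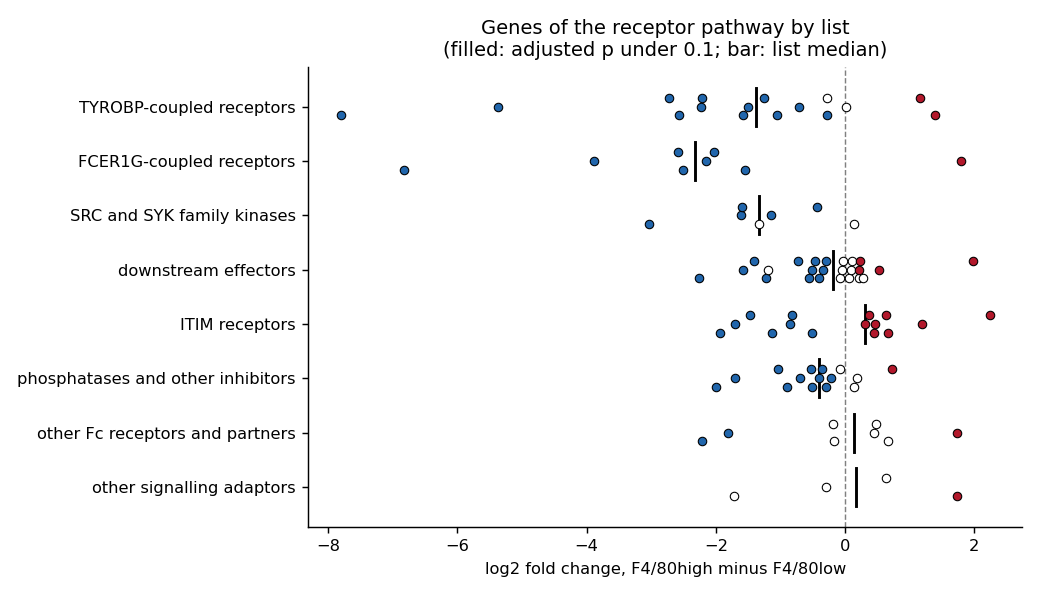
Log2 fold change between F4/80high and F4/80low macrophages (horizontal axis) of each gene in the 8 pathway lists; points are genes, filled where called at an adjusted p under 0.1 (red higher, blue lower), and black bars are list medians. The medians of the TYROBP-coupled and FCER1G-coupled receptors lie at -1.38 and -2.33, while that of the ITIM receptors lies at 0.31.

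In the lymphocytes, FcRγ and DAP12 serve other receptors: FcRγ pairs with CD16 and NKp46, and DAP12 with activating Ly49 and CD94/NKG2C receptors. The 12 libraries held between 8795721 and 14386834 counts and were made with a total RNA kit and another counting, so their levels are not compared with those of the macrophages. Both adaptors were detected in all 12 libraries, and no difference between populations passed the test for either.

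Fcer1g measured 316.8, 296.1 and 208.8 CPM in MFL NK cells, 195.4, 288.8 and 299.9 in CD49a+ NK cells of LM, 174.8, 262 and 246.6 in MFL ILC1 and 171.2, 217.9 and 257 in LM CD49a- NK cells. In this order of means, from 273.9 ± 57.3 to 215.4 ± 43.0 CPM, all 4 populations overlapped each other. Tyrobp measured 304.8, 229.6 and 127 CPM in MFL NK cells, 80.78, 332.7 and 221.9 in CD49a- NK cells of LM, 146.7, 163.4 and 258.4 in MFL ILC1 and 199.4, 213.4 and 89.38 in LM CD49a+ NK cells. Its means, from 220.5 ± 89.2 to 167.4 ± 67.9 CPM, were closer together than the libraries of any one population.

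None of the 6 pairwise contrasts was called for Fcer1g or for Tyrobp by edgeR, DESeq2 or limma-voom, and with edgeR no contrast of either had an unadjusted p under 0.05. Few genes were called in some of these contrasts. The share of all genes was 3.06% for MFL ILC1 against MFL NK cells, 3.58% for MFL ILC1 against CD49a+ NK cells of LM and 4.42% for MFL ILC1 against CD49a- NK cells of LM. It was 0.647% for CD49a+ NK cells of LM against MFL NK cells, 0.0736% for CD49a- NK cells of LM against MFL NK cells and 0.14% for the CD49a contrast within LM. The 95% interval of the log2 fold change of MFL ILC1 against MFL NK cells was -0.80 to 0.27 for Fcer1g and -1.14 to 0.70 for Tyrobp. For the CD49a contrast within LM it was -0.26 to 0.81 for Fcer1g and -1.26 to 0.58 for Tyrobp. These intervals give the differences that the 3 libraries against 3 leave possible. The difference between the CD49a contrasts in LM and MFL was 0.54 for Fcer1g (adjusted p = 0.7596) and -0.12 for Tyrobp (adjusted p = 0.9999) by edgeR's interaction term.

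The count ratio of Fcer1g to Tyrobp, which separated the macrophage subsets, spread widely in lymphocytes. It was 1.039, 1.29 and 1.644 in MFL NK cells and 1.192, 1.603 and 0.9545 in MFL ILC1 (exact permutation p = 0.7). In LM it was 2.12, 0.655 and 1.158 in CD49a- and 0.9801, 1.353 and 3.356 in CD49a+ NK cells (exact permutation p = 0.6), and the groups overlapped in both places.

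**Figure D5:**
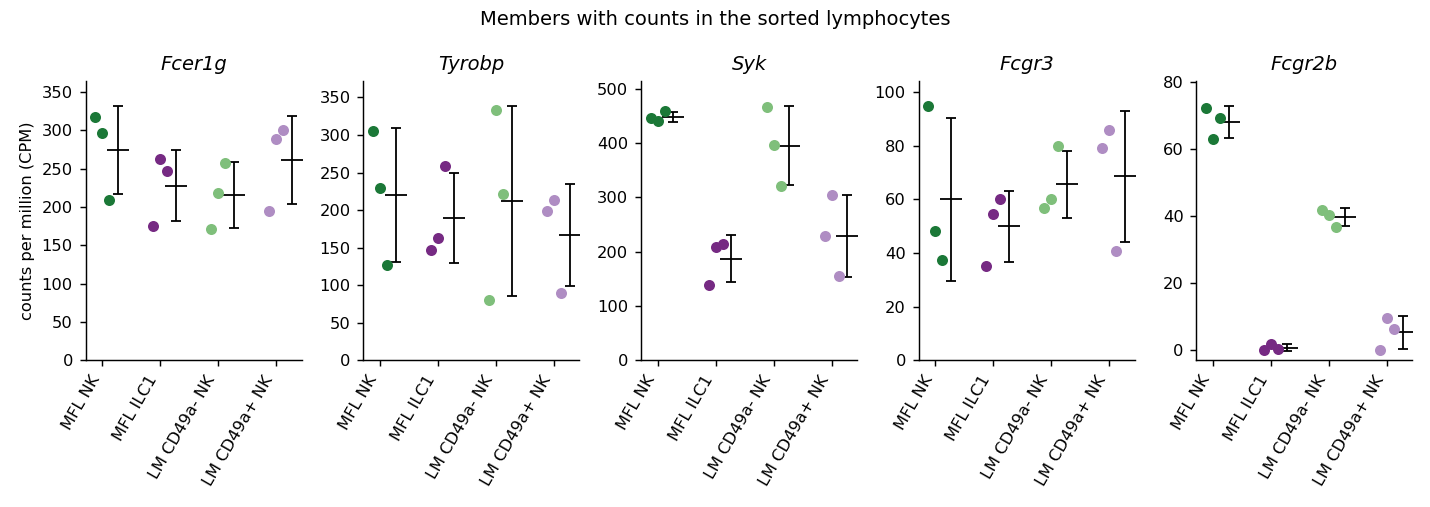
Level in CPM (vertical axes) of the 5 members with more than a few counts in lymphocytes, in the 4 populations, with 3 points (libraries) each; black marks are mean ± SD. Fcer1g and Tyrobp overlap in all populations, whereas Fcgr2b is near 0 in MFL ILC1 (0.761 CPM) and at 68.1 CPM in MFL NK cells.

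The genes most like the adaptors over the 12 lymphocyte libraries, by Pearson's r of log2 CPM among 9774 genes with a mean of at least 5 CPM, were 3110040N11Rik (0.90), the pseudogene Ubb-ps (0.89) and the translation factor Eif4e (0.87) for Fcer1g, and the proteasome subunit Psmb2 (0.91), Vti1b (0.90) and Nsrp1 (0.88) for Tyrobp. Fcer1g and Tyrobp correlated with each other at r = 0.37. These values describe libraries that share a kit and differ in depth.

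Of the other members, Syk did separate the lymphocytes. It measured 446, 441.3 and 459.2 CPM in MFL NK cells and 138.1, 209.3 and 214.8 in MFL ILC1, without overlap, beside 25.3% of all genes whose libraries did not overlap in this contrast (log2 fold change of ILC1 against NK cells -1.26, SE 0.26, adjusted p = 0.00962 by edgeR). In LM it measured 466.8, 396.7 and 321.9 CPM in CD49a- and 228.3, 304.5 and 154.4 in CD49a+ NK cells, where the groups did not overlap but the test was not passed (-0.79, adjusted p = 0.3344 by edgeR), beside 9.82% of all genes whose libraries did not overlap. LM CD49a- NK cells exceeded MFL ILC1 (1.08, adjusted p = 0.02654 by edgeR), a call that was lost without LM CD49a- replicate 1 (0.1045) or MFL ILC1 replicate 1 (0.1691) and with total counts alone (0.1017).

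Fcgr2b, the inhibitory receptor, measured 72.27, 62.8 and 69.08 CPM in MFL NK cells and 41.89, 40.21 and 36.71 in CD49a- NK cells of LM. It measured 0, 1.903 and 0.379 CPM in MFL ILC1 and 0, 9.543 and 6.377 in LM CD49a+ NK cells. The libraries with CD49a lay far below those without it at both sites. Of all genes, 25.3% had libraries that did not overlap in this contrast in MFL and 9.82% in LM. In counts, MFL ILC1 held 0, 26 and 4, against 852 to 941 in MFL NK cells. MFL ILC1 differed from MFL NK cells (adjusted p = 0.008817 by edgeR) and from LM CD49a- NK cells (0.01665), while the CD49a contrast within LM did not pass the test (log2 fold change -2.89, adjusted p = 0.3746 by edgeR). Nor did LM CD49a+ NK cells against MFL NK cells (-3.67, adjusted p = 0.2803 by edgeR).

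Fcgr3, the partner of FcRγ in NK cells, had means between 49.9 ± 13.3 CPM in MFL ILC1 and 68.6 ± 24.3 in LM CD49a+ NK cells, and no contrast was called. Fcgr4 had 0 counts in all 12 libraries, which allows a level of up to 0.334 CPM, for counting error only. Fcgrt had at most 5 counts, and Fcgr1 had at most 6 counts in any library except MFL ILC1 replicate 2, with 50. That library also had the highest macrophage marker sum of the MFL ILC1 libraries (164 CPM, against 41.2 and 46.6). Without Itgam, which NK cells also express, the other 9 macrophage markers summed to 0 to 115 CPM over the 12 libraries.

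The receptors that use these adaptors were uneven across the populations. Klra8 (Ly49H) and Klra4 (Ly49D), which pair with DAP12, were at 453.2 ± 43.3 and 367.9 ± 71.8 CPM in MFL NK cells, at 387.6 ± 124 and 343.6 ± 85.5 in LM CD49a- NK cells, at 168.7 ± 30.3 and 97.4 ± 31.6 in LM CD49a+ NK cells and at 11.4 ± 4.43 and 10.3 ± 13.8 in MFL ILC1. MFL ILC1 were lower than MFL NK cells in both (log2 fold change -5.31 for Klra8, adjusted p = 6.279e-08, and -5.16 for Klra4, adjusted p = 0.000287, by edgeR). LM CD49a+ NK cells were called lower than MFL NK cells for Klra8 (-1.43, adjusted p = 0.03225 by edgeR), and this call was lost without MFL NK replicate 1 (0.1604) or 3 (0.127) or LM CD49a+ replicate 3 (0.1387). For Klra4 this contrast was not called (adjusted p = 0.3118 by edgeR). The CD49a contrast within LM was called for neither gene (adjusted p = 0.204 for Klra8 and 0.3494 for Klra4 by edgeR).

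Klrc2, which encodes NKG2C, and Klrd1, which encodes its partner CD94, were called lower in CD49a+ NK cells of LM than in MFL ILC1 (log2 fold change -1.42, adjusted p = 0.09206, and -0.82, adjusted p = 0.08479, by edgeR), and the calls were lost in 10 and 11 of 20 alternatives. Ncr1, which encodes the NKp46 used for the sort, Klrk1 (NKG2D), Klrb1c (NK1.1) and the adaptor Hcst (DAP10) were called in none of the 6 contrasts by edgeR. Cd247, the ITAM chain CD3ζ that also serves CD16 and NKp46, was at 224.8 ± 21.8 CPM in MFL NK cells and 53.2 ± 17.6 in MFL ILC1 (log2 fold change -2.08, adjusted p = 0.0006698 by edgeR). It was higher in LM CD49a+ NK cells than in MFL ILC1 (1.61, adjusted p = 0.007543 by edgeR) and in LM CD49a- NK cells than in MFL ILC1 (1.88, adjusted p = 0.001427 by edgeR). Zap70, the kinase related to SYK, was at 217.8 ± 12.7 CPM in MFL ILC1 and 88.5 ± 25.3 in CD49a+ NK cells of LM (-1.30 on the log2 scale, adjusted p = 0.01995 by edgeR, and 0.1083 without LM CD49a+ replicate 3), and at 130 ± 19.97 in MFL NK cells, where the test against MFL ILC1 was not passed (adjusted p = 0.3342 by edgeR). The T cell markers summed to 249 to 681 CPM in MFL ILC1 libraries. Their sums were 5.18 to 35.7 CPM for LM CD49a+, 11.9 to 17.7 for LM CD49a- and 4.98 to 14.7 for MFL NK libraries. The B cell (138 to 184 CPM) and tumor epithelium (59.3 to 95.2 CPM) sums were also highest in MFL ILC1. The part of such transcripts in the Zap70 values was not tested.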

How the data were processed

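The macrophage and lymphocyte tables hold whole-number estimated counts per gene, without normalization, as deposited. The authors made the lymphocyte libraries with a stranded total RNA kit and the macrophage libraries with a directional poly(A) kit. The submitters' processing notes name Trim Galore, Salmon 1.5.0 for the lymphocytes and 1.10.0 for the macrophages, and GRCm39, and the methods name GENCODE M27 for the lymphocytes; for the macrophages the annotation release and any pooling are not given in the sources used here. No gene of the macrophage table had a total under 37, so genes under some minimum may have been removed before deposit. DESeq2 was the authors' test, and the FDR of 0.1 that the study gives for the lymphocytes was kept as threshold for both.

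Here, identifiers were named from GENCODE vM39 (13726 of 13759 and 53700 of 54309 matched). Genes were filtered with edgeR's filterByExpr, scaled by TMM and compared with edgeR 4.0.16's quasi-likelihood test in R 4.3.3, with 1 fit of the 6 macrophage and 1 of the 12 lymphocyte libraries. P-values were adjusted by Benjamini-Hochberg over all genes. DESeq2 1.42.0, limma-voom (limma 3.58.1), other scalings, no filter, a replicate block, a threshold of 0.05 and leaving out each library were tried. The SE of a log2 fold change is its size over the square root of the F statistic. Ratios were compared by exact two-sided permutation tests. The fits were also run on simulated counts in which few genes changed, each by more than any member did in the macrophages. That run therefore does not bear on calls of the members' size. Plots used matplotlib 3.10.9.

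All 8 members were named, and of each pathway list up to 3 called genes per direction with the largest change and a mean of at least 5 CPM. In lymphocytes the genes named are the other members and a list of partners of Fcer1g and Tyrobp. The members and lists were chosen with earlier results of these data known. Protein features planned from RefSeq were taken from the coding sequence of GENCODE canonical transcripts. Replicates differed by more than sampling noise, so each library was counted as 1 sample. The limit given for a count of 0 (3 counts) covers counting error only.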

Additional observations from a re-analysis of the deposited data

How the results depend on the processing

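For the macrophages, the signs of all 8 members held under RLE scaling, total counts alone, no filter, DESeq2, limma-voom, the replicate block, the threshold of 0.05 and each left-out library. The number of members called was 5 in these settings except 4 at 0.05, where Fcgr3 was lost, and 3 to 5 with a library left out. It was 3 without F4/80low replicate 1 or F4/80low replicate 2, with Fcgr3 and Fcer1g lost; the cause was not tested, and these fits have 5 libraries. The pathway count of 73 stayed between 67 and 77. Same-numbered macrophage libraries correlated in their deviations from the group means at 0.17, -0.01 and 0.03, so the numbers were not taken as pairs, and not every library correlated best with its own number. These correlations run over all genes. The values of Fcgr1, Fcgr2b, Fcgr3 and Tyrobp each ranked alike by replicate number in both subsets, and those of Syk did not. A pairing is therefore not excluded for these members. With the replicate block 5 members and 74 pathway genes were called, and for the lymphocytes 0 contrasts of Fcer1g or Tyrobp.

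For the lymphocytes, no alternative called a contrast of Fcer1g or Tyrobp, but signs of differences near 0 turned when 1 library was left out. For Fcer1g, LM CD49a+ against MFL NK cells ranged from -0.2327 to 0.0913 and was above 0 without MFL NK or LM CD49a+ replicate 1, and LM CD49a- NK cells against MFL ILC1 ranged from -0.2408 to 0.0584 and was above 0 without LM CD49a- replicate 1 or MFL ILC1 replicate 2. For Tyrobp, MFL ILC1 against MFL NK cells ranged from -0.5086 to 0.0846 (above 0 without MFL NK replicate 1), and LM CD49a- against MFL NK cells from -0.5446 to 0.3276 (above 0 without MFL NK or LM CD49a- replicate 1). LM CD49a+ against LM CD49a- NK cells ranged from -0.7284 to 0.1439, and LM CD49a- NK cells against MFL ILC1 from -0.3249 to 0.5474, both turned without LM CD49a- replicate 2. LM CD49a+ NK cells against MFL ILC1 ranged from -0.3948 to 0.1211 (above 0 without replicate 3 of either). The log2 ratio of Fcer1g to Tyrobp ranged from -0.2872 to 0.0867 between MFL ILC1 and MFL NK cells (above 0 without replicate 3 of either) and from -0.0248 (without LM CD49a+ replicate 3) to 0.9172 between the LM populations. The lymphocyte libraries were shallower than those of the macrophages, and each population had 3. The part of depth and of the spread between libraries in the precision of the adaptors' differences was not tested. Counts over all genes depended on the tool. For MFL ILC1 against MFL NK cells edgeR called 416 genes, DESeq2 667 and limma-voom 643, and for the CD49a contrast within LM the counts were 19, 543 and 50. For CD49a- NK cells of LM against MFL NK cells they were 10, 161 and 2, and for CD49a+ NK cells of LM against MFL NK cells 88, 365 and 213. Against MFL ILC1 they were 486, 1010 and 915 for CD49a+ and 601, 1233 and 1184 for CD49a- NK cells of LM. The cause was not tested. Same-numbered lymphocyte libraries of different populations correlated in their deviations from the group means at -0.05 to 0.10. Those of different numbers did so at -0.11 to 0.08. Among all calls named, the replicate block ended 1, that of Klrd1 in LM CD49a+ NK cells against MFL ILC1 (adjusted p = 0.1088 by edgeR).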
